A study of Mus musculus with 8 samples.

Results

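The genes described here are 9 complement components and receptors, chosen by name: C1qa, C1qb, C1qc, C3, C3ar1, C5ar1, Cfp, Cfb and Cd55. Of these, 8 have a row among the 12367 genes of the deposited table, and Cd55 was not analysed here. The expression values come from polyadenylated RNA of mouse alveolar macrophages, the macrophages of the air spaces of the lung, sorted by flow cytometry for CD45, F4/80 and CD11c after magnetic enrichment of CD11c+ cells, from untreated mice of 3 weeks. The KO group was CD11c-Cre Tfam-fl/fl, with floxed alleles of Tfam and a Cre recombinase driven by CD11c, and the WT group was Tfam-fl/fl, with the same floxed alleles and no Cre. Each group had 4 libraries, and each library was made from cells pooled from 3 to 5 male and/or female mice. With no mice that had Cre and unfloxed Tfam, what Cre does by itself and what Tfam loss does cannot be told apart. The promoter of CD11c is also active in dendritic cells.

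Complement is a cascade of blood and tissue proteins that tags particles for uptake and calls in immune cells. C1q, a hexamer of trimers built from the chains of C1qa, C1qb and C1qc, starts the classical pathway and also binds dying cells; unlike most complement proteins it is made mainly by macrophages and dendritic cells. C3 is the central component, factor B (Cfb) and properdin (Cfp) form and hold together the convertase of the alternative pathway, and decay-accelerating factor (Cd55) takes convertases apart. Cleavage releases the anaphylatoxins C3a and C5a, which act on the G protein-coupled receptors encoded by C3ar1 and C5ar1.

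In the KO libraries the 3 C1q genes and C3ar1 were higher, C5ar1, Cfp and Cfb were lower, and C3 did not pass the test. The largest changes were a C3ar1 mean 5.74 times that of WT and a C5ar1 mean lower by 5.18 times. The smallest change of a called member was a Cfb mean lower by 1.47 times. Thus 7 of the 8 measured members were called, 4 higher and 3 lower, beside 38.7% of all 12163 tested genes in either direction, 18.7% higher and 20.0% lower. C3ar1 and C5ar1 were among the genes called with a log2 change over 2 in size, which 0.839% of all tested genes were. The values of KO and WT did not overlap for 6 members, beside 37.7% of all tested genes. The median size of the log2 change was 1.63 over the 8 members and 0.206 over all tested genes. All 8 members passed the filter on low values with values above 1 in every library, and the fewest reads behind any of these values were 46, for C3ar1. The plot of all members by library shows these values.

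**Figure D1:**
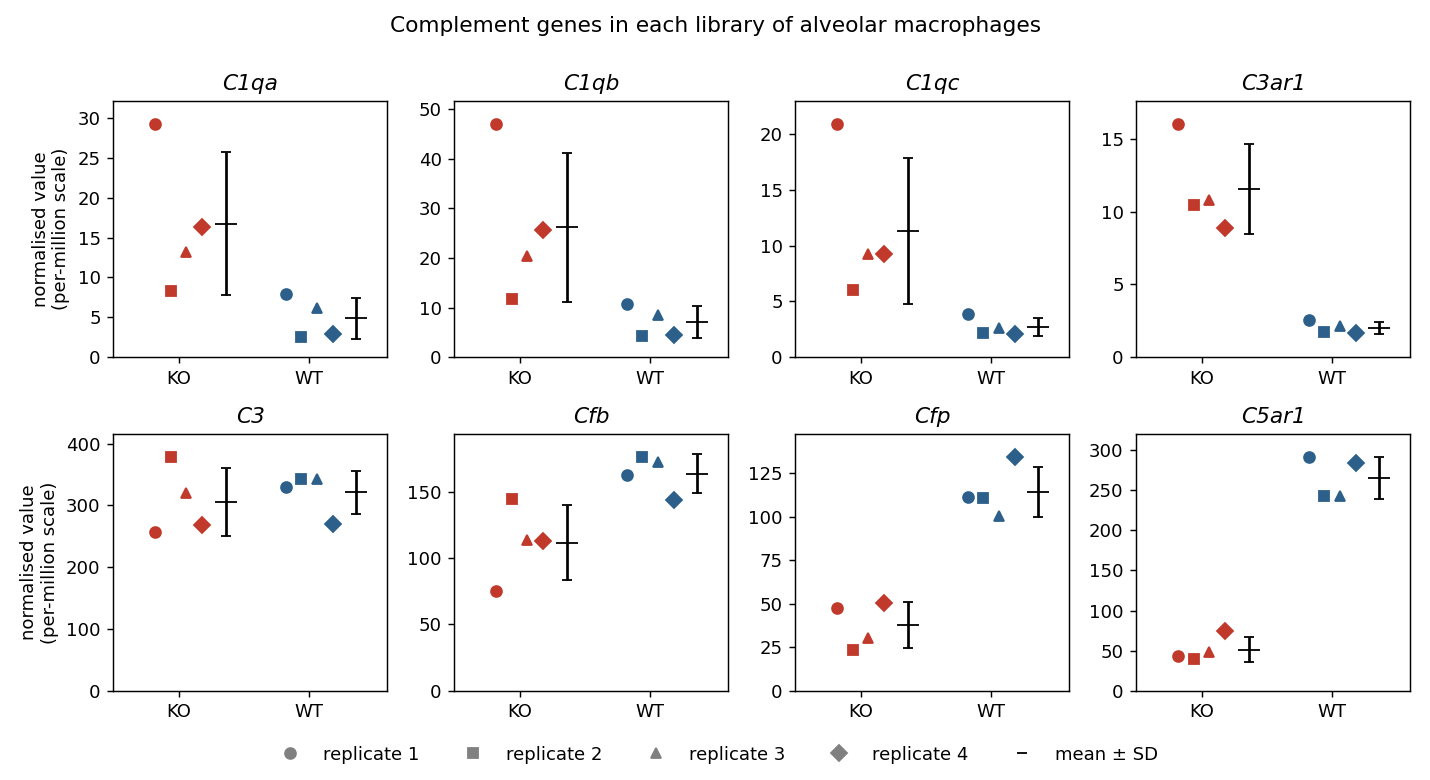
Normalised value (per-million scale, axis from 0) of the 8 measured complement genes in each KO and WT library, with 1 symbol per replicate number and the mean ± SD of 4 libraries in black. The KO symbols lie above all WT symbols for C1qa, C1qb, C1qc and C3ar1, and below all WT symbols for Cfp and C5ar1. For Cfb 1 KO symbol lies above the lowest WT symbol, and for C3 the KO symbols spread to both sides of the WT range.

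Tfam checked the labels. It was 4.52, 5.08, 4.29 and 3.52 in KO replicates 1 to 4, against 26.1, 35.2, 30.3 and 29.7 in WT replicates 1 to 4, a log2 change of -2.55 (SE 0.117, limma adjusted p = 1.02e-06). The libraries held 20243772 to 30263201 reads in the listed genes in KO and 24776683 to 29161957 in WT, and the limit that 3 reads set, for counting error alone, was at 0.1 to 0.152. All 15 markers of alveolar macrophages on a fixed list were in the table, with a summed level of 37380 to 42930 in KO and 35570 to 38110 in WT. Most of that sum was Chil3 alone, at 24490 to 30290 in KO and 22380 to 25450 in WT. Of the 15 markers, 4 rose (Itgax, Car4, Atp6v0d2 and Ctsk) and 5 fell (Siglecf, Ear1, Ear2, Krt79 and Cidec), while 6 missed the threshold. Thus 60.0% of them were called, beside 38.7% of all tested genes. Log2 changes are of value + 1 and understate the change of low genes. The values are from bulk samples, in which fewer cells of a type and less RNA per cell cannot be told apart.

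The genes of the C1q chains form a cluster on the minus strand of chromosome 4 (GRCm38, GENCODE vM21), with C1qb at 136880129 to 136886187, C1qc at 136889804 to 136893065 and C1qa at 136895917 to 136898803. The 3 genes lie within 18675 bases, with 3616 bases between C1qb and C1qc and 2851 bases between C1qc and C1qa. C3ar1 lies on chromosome 6 at 122847138 to 122856161 and C5ar1 on chromosome 7 at 16246743 to 16259540, both on the minus strand. The promoter of C1qb is shown for the C1q cluster, and those of C3ar1 and C5ar1 because these receptors moved in opposite directions. Each is the stretch of 250 bases before the start that RefSeq gives the gene on GRCm38.p6, read 5′ to 3′ along the minus strand, at chr4:136886201-136886450, chr6:122856158-122856407 and chr7:16259339-16259588. RefSeq and GENCODE place some starts differently, so that 202 bases of the C5ar1 window and 4 of the C3ar1 window lie inside the span that GENCODE gives the gene, and 0 of the C1qb window do. Capitals mark matches on either strand to TATAAA, to GAGGAA, the core of sites of the macrophage factor PU.1, and to TGCTGA.
C1qb: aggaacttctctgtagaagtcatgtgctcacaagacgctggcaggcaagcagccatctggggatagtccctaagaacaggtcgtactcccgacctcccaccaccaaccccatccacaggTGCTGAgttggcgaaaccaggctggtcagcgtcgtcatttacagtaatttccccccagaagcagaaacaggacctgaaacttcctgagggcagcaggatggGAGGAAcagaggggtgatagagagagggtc
C3ar1: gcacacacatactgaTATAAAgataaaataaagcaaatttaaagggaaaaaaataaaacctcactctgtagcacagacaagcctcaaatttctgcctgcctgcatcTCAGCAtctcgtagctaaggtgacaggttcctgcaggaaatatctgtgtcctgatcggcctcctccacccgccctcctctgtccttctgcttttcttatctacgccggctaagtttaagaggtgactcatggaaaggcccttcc
C5ar1: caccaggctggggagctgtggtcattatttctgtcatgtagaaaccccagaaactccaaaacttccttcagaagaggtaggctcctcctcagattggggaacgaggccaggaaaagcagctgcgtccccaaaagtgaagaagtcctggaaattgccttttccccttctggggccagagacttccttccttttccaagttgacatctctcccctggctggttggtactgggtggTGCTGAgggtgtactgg
The table of promoters held 7 of the 9 members, and C1qa and Cfb had no entry in it. GAGGAA was found in the windows of C1qb, at position -30 from the RefSeq start, and C1qc (not shown, with 151 bases inside the GENCODE span), at -193, and in 23.3% of all 32817 windows of the same length. TGCTGA was found in 5 of the 7 windows, those of C1qb, C3, C3ar1, C5ar1 and Cd55, and in 16.1% of all windows. It stood at -131 in C1qb, at -144 in C3ar1 and at -17 in C5ar1, counted from the RefSeq starts; in C5ar1 this is inside the GENCODE span. TATAAA was in the window of C3ar1 alone among the members, at -235, and in 12.4% of all windows. GGG and CC with any 5 bases between them, a loose form of NF-kB sites, were in 6 of the 7 windows and in 45.8% of all, and are not marked in capitals. TGATGNAA, the C/EBP-ATF element, was in 0 of the 7 windows and in 3.45% of all, and a pair of GAAA with any 2 bases between them, the interferon-stimulated element, was in 0 and in 2.97%. None of these matches overlapped another in capitals, and a match describes letters only.

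All 3 C1q genes rose in KO. C1qa, the A chain, was 29.3, 8.27, 13.2 and 16.3 in KO replicates 1 to 4, against 7.95, 2.54, 6.11 and 2.95 in WT replicates 1 to 4. C1qb, the B chain, was 47.0, 11.8, 20.3 and 25.6 in KO, against 10.8, 4.33, 8.59 and 4.55 in WT, in the same order. C1qc, the C chain, was 20.9, 6.07, 9.22 and 9.21 in KO, against 3.85, 2.175, 2.65 and 2.05 in WT. For C1qa and C1qb the lowest KO library, replicate 2, lay just above the highest WT library, replicate 1, so that the groups did not overlap but nearly met. The mean of C1qa was 16.8 ± 8.97 in KO and 4.89 ± 2.59 in WT (SD, n = 4 each), with a log2 change of 1.57 (SE 0.387, limma adjusted p = 0.00997). The log2 change was 1.68 for C1qb (SE 0.391, limma adjusted p = 0.00757) and 1.64 for C1qc (SE 0.308, limma adjusted p = 0.0023). Between libraries of the same replicate number, the KO value was 2.16 to 5.54 times the WT value for C1qa, 2.36 to 5.63 times for C1qb and 2.79 to 5.44 times for C1qc.

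The 3 chains kept close proportions while their summed level ranged widely. The sum of the 3 values ran from 26.1 to 97.2 in KO, a range of 3.72 times, and from 9.05 to 22.6 in WT, a range of 2.5 times. Per kb of exon, C1qa made up 35.3% ± 0.854 of the chain level in KO and 36.3% ± 3.22 in WT (SD, n = 4 each). The share of C1qb was 51.8% ± 1.73 in KO and 51.8% ± 0.844 in WT, and that of C1qc was 12.9% ± 1.46 in KO and 11.8% ± 2.69 in WT. The difference in mean share was smaller than the SD of both groups for C1qb and C1qc, and smaller than that of WT for C1qa. Likeness of pattern was measured as the root mean square difference of log2 values, each gene centred on its mean over the 8 libraries. Among 12162 other tested genes, C1qb was the closest to C1qa and C1qa the closest to C1qb, at a difference of 0.0909, and C1qc ranked 2 for both. For C1qc, C1qb ranked 2 and C1qa ranked 3.

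**Figure D2:**
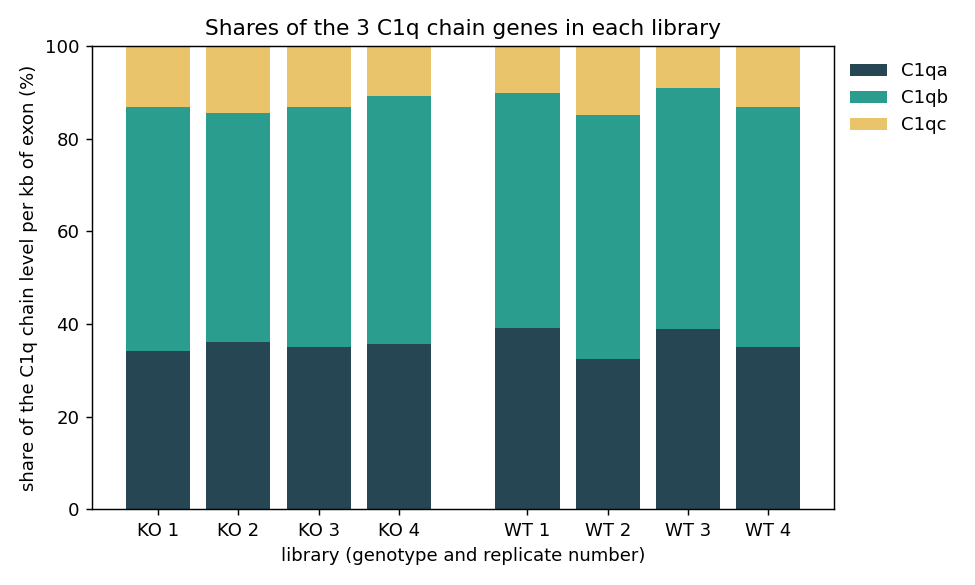
Share of each C1q chain gene in the summed level per kb of exon (percent, stacked to 100) in each KO and WT library. C1qb holds 49.4% to 53.5% in KO and 50.7% to 52.7% in WT, and C1qc is the smallest share in every library.

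Replicate 1 had the highest C1q sum in each genotype and replicate 2 the lowest. On a fixed list of 15 markers of interstitial or monocyte-derived macrophages, 11 were in the table. Of these 8 rose and 0 fell, while 3 missed the threshold, so that 72.7% were called beside 38.7% of all tested genes. Their summed level was 233 to 428 in KO and 125 to 167 in WT. Folr2, Pf4, Tmem119 and Ccl12 of that list were not analysed here. The chemokine receptor Cx3cr1 was 12.7, 5.73, 6.89 and 7.42 in KO replicates 1 to 4, against 3.61, 2.8, 4.51 and 2.48 in WT. In KO 6 of the 11 measured markers, among them this gene, Ccr2 and F13a1, put the 4 libraries in the same order as the C1q sum, and in WT 0 of 11 did. Replicate 1 was the highest library for 8 of the 11 markers in KO and for 3 of the 11 in WT. The markers Lyve1 and Cd163 were low and did not pass the test, at 4.94 to 7.65 in KO and 2.61 to 7.18 in WT for Lyve1, and at 2.29 to 9.33 in KO and 3.15 to 5.74 in WT for Cd163. The immediate early gene Nr4a1 put the libraries of both genotypes in the same order as the C1q sum. Its values were 124, 15.7, 37.3 and 58.7 in KO replicates 1 to 4, against 219, 23.9, 115 and 109 in WT. It did not pass the test between genotypes, which left the replicate number out (log2 change -0.97, limma adjusted p = 0.321). Between libraries of the same replicate number, its KO value was 0.324 to 0.658 times the WT value. Nr4a1 stood on a fixed list of 8 markers of monocytes, 7 of them in the table. Of these, Ccr2 rose, Treml4 and Spn fell, and 4 missed the threshold, so that 42.9% were called beside 38.7% of all tested genes. The 7 summed to 175 to 334.5 in KO and 210 to 403 in WT. Of 7 measured markers of dendritic cells, which can also make C1q, 2 rose (Clec9a and Ccl22) and 0 fell. Thus 28.6% were called, beside 38.7% of all tested genes. The 7 dendritic cell markers summed to 33.7 to 48.3 in KO and 23.9 to 34.8 in WT. The part of these cells and genes in the C1q result was not tested. Without both replicate 1 libraries the log2 change was 1.51 for C1qa, 1.56 for C1qb and 1.46 for C1qc, and all 3 were still called (limma adjusted p = 0.012, 0.0105 and 0.00133). Over all alternatives the adjusted p reached 0.0435 for C1qa, 0.0353 for C1qb and 0.01 for C1qc.

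**Figure D3:**
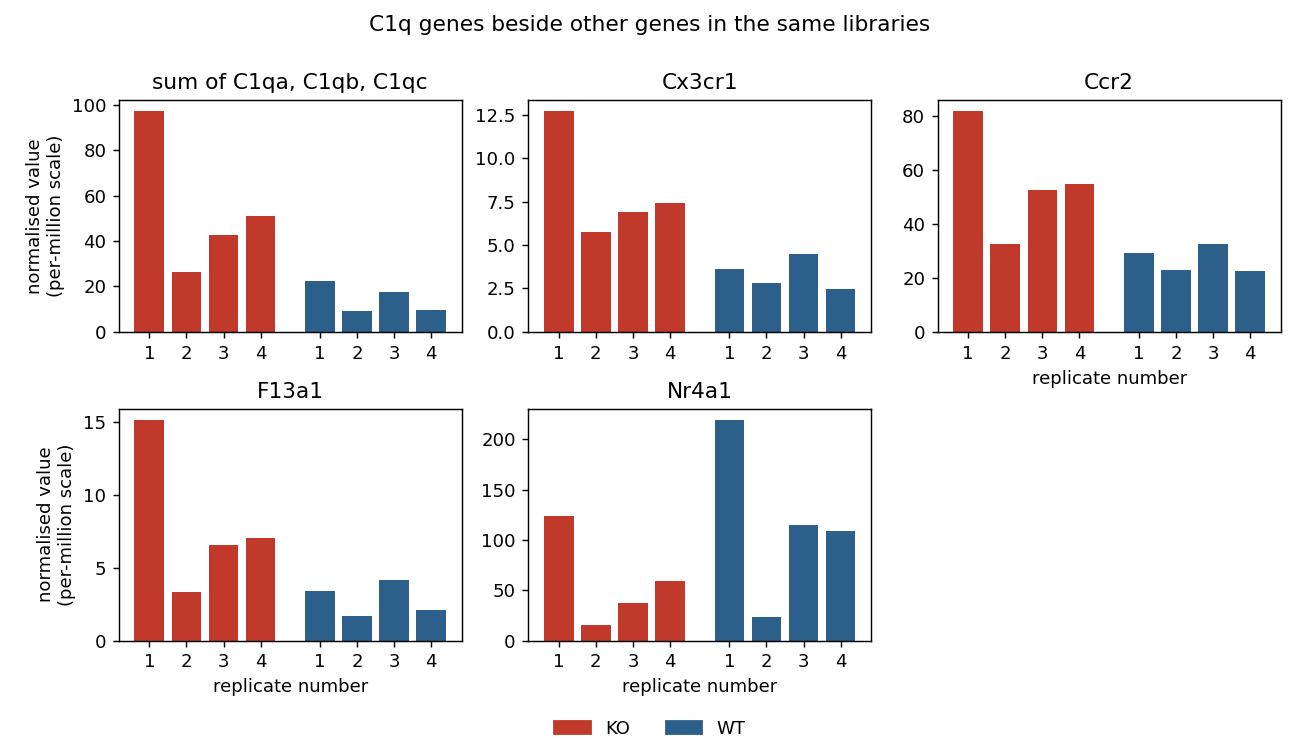
Normalised value (per-million scale, axis from 0) in each library, by replicate number, of the sum of the 3 C1q genes and of Cx3cr1, Ccr2, F13a1 and Nr4a1. In KO all 5 panels are highest in replicate 1 and lowest in replicate 2. In WT the C1q sum and Nr4a1 are highest in replicate 1, and Cx3cr1, Ccr2 and F13a1 in replicate 3. Cx3cr1, Ccr2 and F13a1 are from the 6 of 11 measured macrophage markers that follow the C1q order in KO. At each replicate number KO is above WT in every panel except Nr4a1, where it is below.

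The genes whose pattern over the 8 libraries was nearest to the averaged C1q genes, among 2009 named genes with a log2 range of at least 1, were Pla2g7, Blnk and F13a1. Pla2g7, a secreted phospholipase that breaks down platelet-activating factor, averaged 25.9 ± 10.9 in KO and 8.85 ± 2.93 in WT, at a difference of 0.266 from the C1q profile. Blnk, an adaptor of receptor signalling known from B cells, lay at 0.29, and F13a1, the A subunit of coagulation factor XIII, at 0.301. Blnk passed the filter on low values only through KO, where it is high.

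Of the alternative pathway components, Cfp and Cfb fell and C3 missed the threshold. C3 was 258, 378, 320 and 268 in KO replicates 1 to 4, against 330, 343, 343 and 270 in WT, with means of 306 ± 55.2 in KO and 321.5 ± 34.6 in WT (SD, n = 4 each). The groups overlapped, and the log2 change of -0.08 did not pass the test (SE 0.125, limma adjusted p = 0.65). Cfb, the protease of the convertase, was 75.5, 145, 114 and 113 in KO, against 163, 176, 173 and 144 in WT. The highest KO library lay just above the lowest WT library, and the gene was called lower with a log2 change of -0.58 (SE 0.166, limma adjusted p = 0.0202). Without WT replicate 2 the call of Cfb was lost (limma adjusted p = 0.0544; the range over all alternatives was 0.00421 to 0.0544). Cfb lies on chromosome 17 at 34856374 to 34862518, 85 bases from C2, and a read-through gene spans both in the annotation, so their counts are uncertain.

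Cfp, which encodes properdin, fell in every KO library. It was 47.3, 23.2, 30.5 and 50.6 in KO replicates 1 to 4, against 112, 111, 101 and 134 in WT. The highest KO value was below the lowest WT value by more than the SD of either group (13.2 in KO and 14.2 in WT). The log2 change was -1.63 (SE 0.221, limma adjusted p = 0.00033). The gene lies on the X chromosome at 20925454 to 20931555, and the pools may differ in their mix of sexes. Between libraries of the same number the KO value was 0.209 to 0.424 times the WT value.

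The receptor genes of the anaphylatoxins changed in opposite directions. C3ar1, the receptor of C3a, was 16.0, 10.45, 10.8 and 8.89 in KO replicates 1 to 4, against 2.54, 1.7, 2.11 and 1.68 in WT. C5ar1, the main receptor of C5a, was 43.5, 39.5, 47.95 and 74.0 in KO, against 291, 243, 242.5 and 284 in WT. Neither gene's groups overlapped, and KO replicate 4 had both the lowest C3ar1 and the highest C5ar1 of its genotype. The log2 change was 2.04 for C3ar1 (SE 0.172, limma adjusted p = 2.29e-05) and -2.39 for C5ar1 (SE 0.17, limma adjusted p = 8.48e-06). The log2 ratio of C3ar1 to C5ar1 was -2.05 ± 0.647 in KO and -6.47 ± 0.195 in WT (SD, n = 4 each). The difference was 4.425, with p = 0.0286 in a two-sided exact permutation test, the smallest p that 4 against 4 libraries allow. With both genes apart in opposite directions, this outcome was fixed, so the p adds nothing to the tests of each gene. The ratio was higher in all KO libraries than in any WT library. Per kb of exon, the level of C5ar1 was 4.55 to 13.9 times that of C3ar1 in KO and 192 to 283 times in WT, so C5ar1 remained the more abundant of the receptor mRNAs in all 8 libraries.

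**Figure D4:**
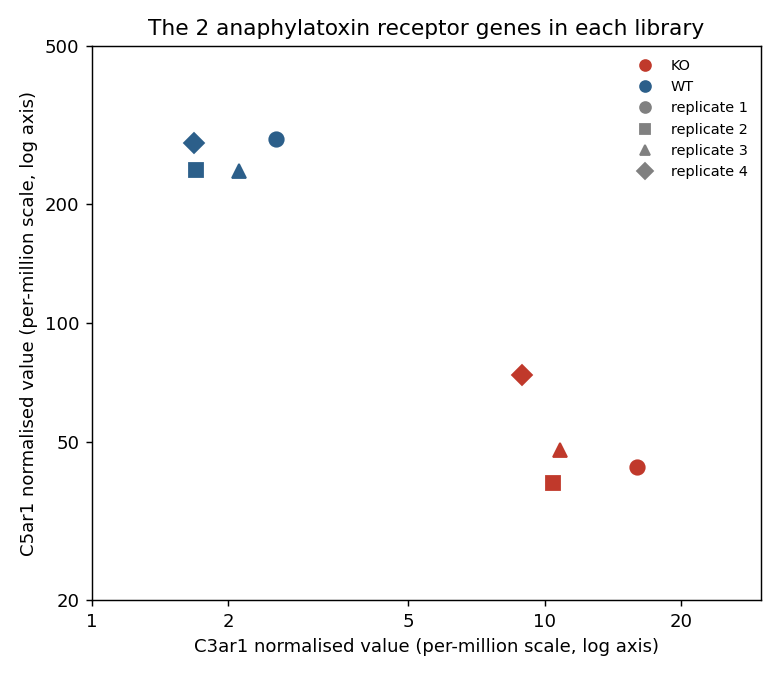
C5ar1 against C3ar1 in each library (normalised values on the per-million scale, both axes logarithmic), with red symbols for KO, blue for WT and 1 shape per replicate number. KO libraries lie at 8.89 to 16.0 for C3ar1 and 39.5 to 74.0 for C5ar1, WT libraries at 1.68 to 2.54 for C3ar1 and 242.5 to 291 for C5ar1.

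The patterns nearest to C3ar1 were those of Vnn3, Phyhd1 and S100a1, at differences of 0.169, 0.185 and 0.192. Vnn3, at 0.15 to 0.533 in WT, passed the filter on low values only through KO, where it is high. S100a1, a calcium-binding protein, averaged 420 ± 39.3 in KO and 93.9 ± 5.64 in WT. Nearest to C5ar1 were Itgad, Ear2 and Gpr155, at differences of 0.113, 0.126 and 0.176. Itgad, the alpha chain of another beta 2 integrin, averaged 1.44 ± 0.888 in KO and 11.9 ± 1.72 in WT. Itgad passed the filter only through WT, where it is high. Ear2, one of a family of near-identical ribonucleases that may share reads, averaged 477 ± 111 in KO and 2245 ± 178 in WT.

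Per kb of exon, C5ar1 led the members in WT at 103 ± 10.2 (SD, n = 4), apart from Cfp at 65.9 ± 8.2, C3 at 62.5 ± 6.72 and Cfb at 58.0 ± 5.13, whose ranges overlapped. The C1q genes followed in WT at 6.49 ± 2.91 for C1qb, 4.7 ± 2.49 for C1qa and 1.39 ± 0.424 for C1qc, and C3ar1 was last at 0.467 ± 0.0948. In KO, C3 led at 59.5 ± 10.7, ahead of Cfb at 39.6 ± 10.1, C1qb at 24.1 ± 13.8, Cfp at 21.8 ± 7.59, C5ar1 at 19.9 ± 6.06 and C1qa at 16.1 ± 8.63. C1qc at 5.88 ± 3.39 and C3ar1 at 2.68 ± 0.72 were lowest in KO. Each member's range overlapped that of its neighbour in this order in KO, whereas in WT C5ar1, Cfb, C1qa and C1qc each stood clear of the gene after them.

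Of 55 other complement genes on a fixed list, 22 were in the table and tested; 7 of these rose and 4 fell, while 11 missed the threshold, so that 50.0% were called beside 38.7% of all tested genes, with 18.7% higher and 20.0% lower. Of the 7 that rose, Fcna and Cd59a passed the filter on low values only through KO, where they are high. The call of Cd59a was lost in each fit that left out 1 library and tested it. The median log2 change of the 22 genes was 0.06, against -0.0063 over all tested genes. The plot of changes gives these genes by role.

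**Figure D5:**
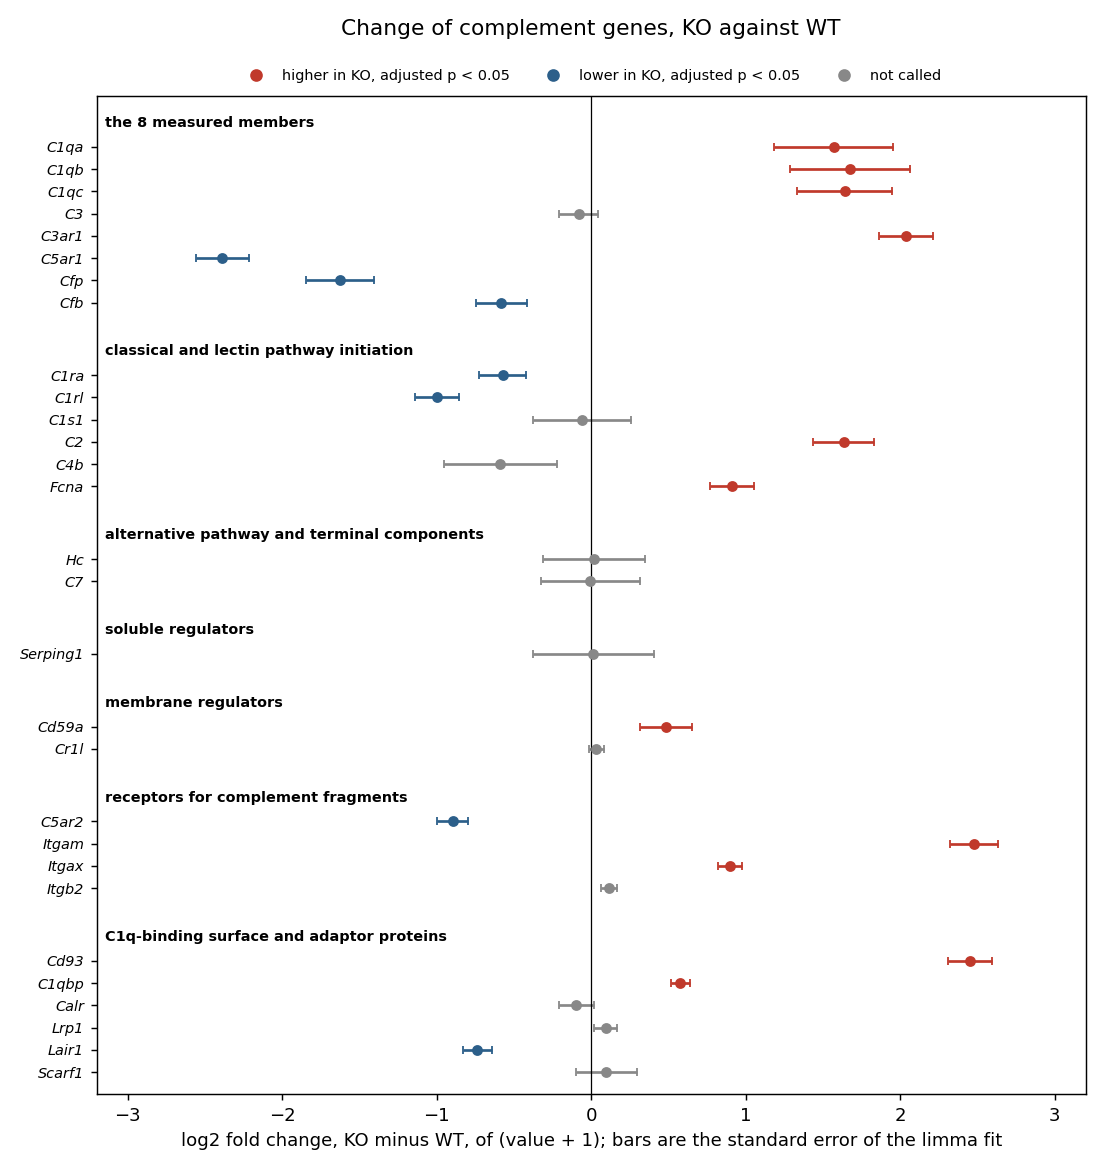
Log2 change of value + 1, KO minus WT, with the standard error of the limma fit as bars, for the 8 measured members and other complement genes by role, coloured by call. Itgam and Cd93 show the highest changes of the other genes, at 2.48 and 2.45, and C1rl the lowest, at -0.998.

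Among receptors for complement fragments, 2 of 4 measured genes rose and 1 fell, so that 75.0% were called beside 38.7% of all tested genes. Itgam, the CD11b chain of complement receptor 3, was 91.8, 86.9, 78.4 and 59.4 in KO replicates 1 to 4, against 14.3, 11.4, 16.5 and 11.3 in WT. All KO libraries lay above all WT libraries, and the log2 change was 2.48 (SE 0.155, limma adjusted p = 3.91e-06). Neutrophils also carry Itgam and C5ar1. Of 4 tested neutrophil markers Cxcr2 rose and S100a9 fell, so that 50.0% were called beside 38.7% of all tested genes. The part of such cells in the result was not tested. The 5 measured neutrophil markers summed to 93.5 to 129 in KO and 36.7 to 78.2 in WT, and without Cxcr2 the other 4 summed to 30.1 to 37.0 in KO and 27.6 to 61.9 in WT. Itgax, the CD11c chain of complement receptor 4, averaged 2050 ± 202 in KO and 1094 ± 48.5 in WT (log2 change 0.90, limma adjusted p = 2.29e-05); CD11c is also the sort marker and its promoter drives the Cre. Their common partner Itgb2 averaged 1518 ± 52.3 in KO and 1399 ± 49.4 in WT and did not pass the test (limma adjusted p = 0.098). C5ar2, the other receptor of C5a, which lies 2588 bases from C5ar1 on chromosome 7, fell to 22.3 ± 3.8 in KO, against 42.0 ± 0.75 in WT (log2 change -0.90, SE 0.101, limma adjusted p = 0.000113).

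In the initiation of the classical and lectin pathways, 2 of 6 measured genes rose and 2 fell. Thus 66.7% were called, beside 38.7% of all tested genes. C1ra, whose product is the C1r protease that C1q activates, averaged 21.7 ± 4.01 in KO and 32.7 ± 5.18 in WT (log2 change -0.57, limma adjusted p = 0.0144), so it moved against the C1q genes; reads of its near-identical copy C1rb may be shared with it. The related C1rl fell by 0.998 on the log2 scale, to 10.5 ± 1.93 in KO, against 21.8 ± 2.74 in WT. C2, the protease of the classical convertase, rose to 7.23 ± 1.95 in KO, against 1.65 ± 0.623 in WT (log2 change 1.63, limma adjusted p = 0.000166), with the read-through gene that spans it and Cfb noted above. Fcna, a ficolin of the lectin pathway, averaged 2.85 ± 0.55 in KO and 1.04 ± 0.213 in WT (log2 change 0.91, limma adjusted p = 0.000855); it passed the filter only through KO, where it is high.

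Of the proteins that bind C1q, 2 of 6 measured genes rose and 1 fell, so that 50.0% were called beside 38.7% of all tested genes. Cd93, a surface glycoprotein originally described as a C1q receptor, was 360, 456, 389 and 354 in KO replicates 1 to 4, against 57.4, 66.2, 94.7 and 66.7 in WT (log2 change 2.45, SE 0.142, limma adjusted p = 2.67e-06). The groups were far apart relative to the SD of 46.9 in KO and 16.2 in WT. Cd93 is also a gene of endothelial cells. Of 5 markers of these, Vwf rose and 4 missed the threshold, so that 20.0% were called beside 38.7% of all tested genes. Vwf was 298, 319, 311 and 221 in KO, against 106, 111, 128 and 66.3 in WT. Cdh5 was 9.86 to 16.8 in KO and 5.81 to 32.2 in WT. The part of these cells in the Cd93 result was not tested. C1qbp, a protein found mainly in mitochondria, averaged 92.4 ± 4.26 in KO and 61.7 ± 4.03 in WT (log2 change 0.58, limma adjusted p = 7.53e-05). Lair1, an inhibitory receptor for collagens that also binds C1q, fell to 74.2 ± 4.08 in KO, against 125 ± 17.0 in WT (log2 change -0.74, limma adjusted p = 0.000204). Calr, Lrp1 and Scarf1 did not pass the test, with log2 changes of -0.10 to 0.10.

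Of 4 measured regulators 1 rose and 0 fell, beside 38.7% of all tested genes called in either direction. Cr1l, the membrane regulator Crry of rodents, averaged 115 ± 3.72 in KO and 112 ± 4.72 in WT and did not pass the test (limma adjusted p = 0.633). Cd59a, which blocks the membrane attack complex, averaged 1.47 ± 0.334 in KO and 0.767 ± 0.262 in WT and was called higher (log2 change 0.49, limma adjusted p = 0.0446). It too passed the filter only through KO, and 0 of the 4 fits that left out a WT library and tested it called it. The terminal components Hc, which encodes C5, and C7, with C1s1, C4b and the C1 inhibitor gene Serping1, did not pass the test, and all 5 were highest in WT replicate 3. That library also had the highest sum of 4 measured fibroblast markers, at 50.6. In KO this sum was 12.5 to 32.6, and in the other WT libraries 8.59 to 16.3. The sum of 8 measured epithelial markers was highest there as well, at 147. It was 73.5 to 113 in KO and 68.2 to 95.8 in the other WT libraries. Of the endothelial markers, Pecam1, Cdh5, Cldn5 and Kdr were highest in that library too, and Vwf was not. The part of such RNA in these values was not tested.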

How the data were processed

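Normalised signal values per gene and library were deposited by the authors for 4 KO and 4 WT pools of sorted cells. Tools named in the submitters' processing notes are RSEM 1.3.1, cutadapt 1.7.1, CASAVA 1.8.2 and limma, with the build GRCm38; the annotation release and strand setting were not given in the sources used here. From the spacing of the values, each is a whole read number plus 0.5 on a scaled per-million basis (100% whole at a tolerance of 0.01), which gave read numbers and depth. Values were tested as log2(value + 1) with limma 3.58.1 in R 4.3.3 (genotype as the term, eBayes with a trend, two-sided tests, p adjusted by Benjamini-Hochberg over all tested genes, threshold 0.05), for genes with at least 1 in at least 4 libraries; 204 of 12367 rows were left out. The limma fit was first run on simulated counts with planted changes. These had the same low spread beyond counting error for all genes and no effect of replicate number. That run says nothing about genes that varied as widely as the C1q genes. The receptor ratio used an exact permutation test (scipy 1.17.1). Exon lengths came from GENCODE vM21.

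The members, lists and tests were chosen with earlier results of these data known. Named genes are the members, the other complement genes that passed the test, Tfam and the 3 nearest genes per profile, passing over predicted genes; markers and genes that did not pass were named after their values were seen. After subtraction of group means, the correlation was 0.363, 0.286, 0.394 and 0.431 for KO and WT libraries of 1 number and -0.374 to 0.0917 for the rest, so the replicate numbers were taken to pair libraries, from the data and not the labels. Alternatives were pseudocounts of 0.25 and 5, no filter, a minimum of 8, voom or library weights, no trend, median centring, quantile normalisation, the replicate block, and leaving out libraries. Replicates are separate pools of animals. Some genes of the lists are counted but not reported here by name.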

Additional observations from a re-analysis of the deposited data

How the results depend on the processing

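Over 20 alternatives, all members that were called kept their direction and their call in each fit that tested them, except Cfb, which was lost without WT replicate 2; a minimum value of 8 left C1qc untested and 3 members higher. Cfb had a log2 change of -0.54 without WT replicate 2. Leaving out both replicate 1 libraries was chosen after seeing the data. There the log2 change of C3, not called in any fit, was 0.00982 (limma adjusted p = 0.972), and the adjusted p of C3 was 0.206 to 0.984 over all alternatives. The count of called members was 4 higher in each fit that left out 1 library and 2 to 3 lower. With the replicate number as a block the counts of members were 4 higher and 3 lower, so the block changed no member's call (C1qa 1.57, SE 0.167), and those of all genes 2730 higher and 2952 lower. Leaving out 1 library gave 1850 to 2252 genes higher and 1947 to 2447 lower. The C3ar1 minus C5ar1 change was 4.2 to 4.72 when 1 library was left out; it was 3.52 with a pseudocount of 5 and 4.93 with voom weights, since the constant added before the log is larger with the first and smaller with the second. Pairing or leaving out a library cannot reach p under 0.05 for this ratio. Of the other complement genes, 6 rose and 4 fell whenever 1 library was left out, and 4 rose with a minimum of 8, where 13 were tested. Genes below the listing limit of the table were not analysed here.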
